A study of Drosophila melanogaster with 6 samples.

Results

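The yellow genes of Drosophila melanogaster encode secreted proteins related to the major royal jelly proteins of bees. The founding gene, y, is needed for black cuticle pigment, and yellow-f and yellow-f2 encode dopachrome-conversion enzymes, which act between dopa and melanin. Melanin chemistry serves cuticle colouring in the epidermis and the encapsulation of parasites and wounds by blood cells. The 10 genes described here are yellow-c, y, yellow-b, yellow-d, yellow-d2, yellow-e, yellow-e3, yellow-f, yellow-f2 and yellow-h, taken by gene symbol from the 16451 genes in the deposited tables. The annotation holds 4 further yellow genes, yellow-e2, yellow-g, yellow-g2 and yellow-k, which are given beside them.

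The libraries came from S2 cells, a hemocyte-like line from embryos, with a wild type genotype per the labels. The control group of 3 libraries received medium alone, and the other group of 3 received H2O2 (hydrogen peroxide, 10 mM) during 30 min at 25 °C. All cells grew in medium with serum, streptomycin and penicillin. The stranded libraries of poly(A) RNA held between 35404927 and 42043808 expected counts each. Genes above 0 counts numbered 11181 to 11322 per control library and 11612 to 12080 per H2O2 library. The series title sets the experiment in a study of nuclear p38 and oxidative stress, and the labels do not state whether replicates were separate cultures. The p-values below therefore rest on the spread from library to library, which may be technical, and in bulk RNA fewer cells of a type and less RNA per cell cannot be told apart.

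The family was chosen by the H2O2 response of yellow-c, whose increase in expected counts and TPM between the groups was already known. The contrast between H2O2 and control in yellow-c is therefore described without a test. For the other members, edgeR's quasi-likelihood test over all genes is given, with p adjusted by the Benjamini-Hochberg method and a threshold of 0.05. Of 8955 genes tested, it called 3.14% (2.57% higher and 0.57% lower after H2O2). With the replicate number as a block, it called 21.7% (8.99% higher and 12.8% lower). It called 7.43% (6.11% and 1.32%) once a trend of level with gene length was also taken out. That trend was fitted in each library, on deviations from each gene's mean. Taking out that trend without the block gave 2.39% (2.29% and 0.101%), and DESeq2 called 7.88% (4.02% and 3.86%). The groups did not overlap in 20.4% of the genes, 9.98% higher and 10.4% lower. Of the 10 members, 7 passed the filter on low counts and were tested.

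The label of the cell line was read against marker genes. All 9 hemocyte markers were present, with a summed level of 2000 to 2210 TPM in controls and 1550 to 1770 TPM after H2O2, where TPM is the deposited level corrected for gene length and library size. The unblocked fit called 0 of the 9, and the blocked fit called 4 lower, against 12.8% of all genes tested, among them Hml, a hemocyte clotting factor gene (log2 fold change −0.70, edgeR adjusted p = 0.000195). After length correction in the same blocked fit 0 of the 9 were called lower, against 1.32% of all genes, and Hml had −0.11 (edgeR adjusted p = 0.277). The 4 crystal cell markers, of the blood cells that melanise, summed to 0.17 to 0.19 TPM in controls and 0.59 to 1.95 TPM after H2O2. Of these, the prophenoloxidase gene PPO2 had 0 counts in all 6 libraries and PPO1 had 1 count in all. The factor gene lz had 0 to 5 counts per library. The rise of the sum lay in peb, a zinc finger factor gene also used outside blood, which went from 0.964 ± 0.172 to 7.76 ± 5.48 CPM (library-scaled counts, n = 3 per group, edgeR adjusted p = 0.0336). The 7 epidermal and cuticle markers summed to 0.13 to 0.23 TPM in controls and 0.63 to 0.81 TPM after H2O2. Cuticle protein genes Cpr47Ea and Cpr65Ea had 0 counts throughout, while knk, a chitin organisation gene, was called higher (0.287 ± 0.0569 to 1.63 ± 0.334 CPM, edgeR adjusted p = 0.0134). With 12, 12 and 8 counts in control replicates 1, 2 and 3, knk passed the filter on low counts through its H2O2 libraries. Its p is therefore a description. The 2 fat body markers summed to at most 0.09 TPM. The 3 neuronal markers summed to 7.64 to 10.4 TPM in controls and 5.72 to 7.59 TPM after H2O2, and the 2 gonad markers to 96.1 to 126 and 95.1 to 132 TPM. Nearly all of the gonad sum was bam, with a mean of 109 TPM over the 6 libraries, while vas had 0.217 TPM. In the neuronal sum, elav and brp had means of 4.46 and 3.06 TPM, and nSyb had 0.175 TPM. The part of any of these lists in the results below was not tested.

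yellow-f was by far the most abundant member. Its level was 181.67, 250.47 and 203.71 TPM in control replicates 1, 2 and 3, and 182.71, 203.37 and 198.21 TPM in H2O2 replicates 1, 2 and 3. Its mean over the 6 libraries ranked 538 among the 16451 genes. yellow-f supplied between 86.2% and 92.7% of the summed TPM of the 14 yellow genes in each library. Its neighbour yellow-f2, which lies 193 nt away on the same strand and encodes the other dopachrome-conversion enzyme, was at 6.10 ± 1.34 TPM in controls and 6.20 ± 0.803 TPM after H2O2 (n = 3 per group). The enzyme pair therefore differed in level in every library, with no overlap between yellow-f and any other member.

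**Figure D1:**
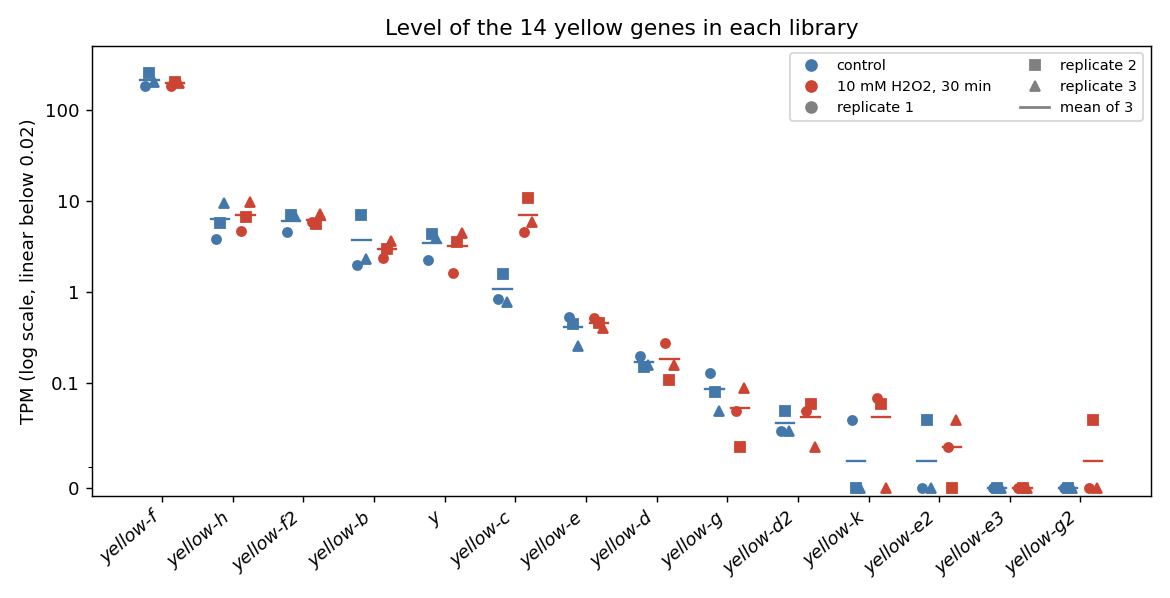
TPM of the 14 yellow genes (x axis) in each of the 6 libraries, on a log scale that is linear below 0.02, with control libraries in blue, H2O2 libraries in red and a line at the mean of 3. yellow-f sits near 200 TPM in both groups, and yellow-c moves from 1.08 to 7.06 TPM on average.

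In controls the members below yellow-f followed in the order yellow-h (6.39 ± 2.92 TPM), yellow-f2, yellow-b (3.75 ± 2.8), y (3.50 ± 1.11) and yellow-c (1.08 ± 0.455). The ranges of neighbours in this order overlapped from yellow-h down to y, so their order is not fixed by these libraries. The lowest y library, at 2.24 TPM, lay above the highest yellow-c library, at 1.6 TPM. yellow-e (0.413 ± 0.139 TPM), yellow-d (0.170 ± 0.0265) and yellow-d2 (0.0367 ± 0.0115) came next, each separate from the one before.

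After H2O2, yellow-c stood second in mean level, at 7.06 ± 3.27 TPM, beside yellow-h at 7.04 ± 2.57 TPM, and the 2 ranges overlapped. In single libraries yellow-c ranked 6 among the 14 yellow genes in every control, and 4, 2 and 4 in H2O2 replicates 1, 2 and 3. Its share of the summed yellow TPM was 0.434%, 0.578% and 0.343% in the controls and 2.26%, 4.6% and 2.54% after H2O2. The lowest H2O2 library of yellow-c, at 4.58 TPM, was above the highest of y in that group, at 4.5 TPM. The order of the remaining members was the same in both groups except that y (3.24 ± 1.46 TPM) and yellow-b (3 ± 0.650 TPM), whose ranges overlapped, changed places.

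yellow-c (FBgn0041713) lies on chromosome 2L at 15035394 to 15037841, plus strand, in dm6 coordinates of the Ensembl annotation. Its function in flies is less well described than that of y. It had 37, 74 and 34 counts in control replicates 1, 2 and 3, and 207, 608 and 284 counts in H2O2 replicates 1, 2 and 3. Scaled by library these were 0.994, 1.96 and 0.940 CPM, and 5.77, 14.5 and 7.20 CPM. Every H2O2 library was above every control, which held in this direction for 9.98% of all genes tested. Replicate 2 was the highest library in both groups. Between libraries of the same number, yellow-c was 5.81-fold, 7.42-fold and 7.66-fold higher after H2O2, a narrower spread than that within either group. The fitted log2 fold change was 2.82 (SE 0.46) without the replicate block and 2.8 (SE 0.15) with it. It ranged from 2.31, without H2O2 replicate 2, to 3.24, without control replicate 2.

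The annotation gives yellow-c 2 transcripts, of 1522 and 1600 nt, a difference of 78 nt. The deposited gene length, an average over transcripts weighted by their abundance, was 1522 nt in each of the 6 libraries. RSEM thus assigned the yellow-c reads to the shorter transcript in controls and after H2O2 alike. yellow-b, with transcripts of 1659 and 1839 nt, differed in this respect: the length corresponded to 3.54% and 4.74% of the longer form in control replicates 2 and 3 and to 5.29% in H2O2 replicate 3, and to 0% in the other 3 libraries.

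The surroundings of yellow-c were read next, because the deposited counts are per gene and a gene can collect reads from transcripts of its neighbours. The nearest gene upstream on the same strand, GABA-B-R1, which encodes a metabotropic GABA receptor subunit, ends 689 nt before yellow-c. It had 0, 2 and 0 counts in the controls and 4, 6 and 1 after H2O2, so it was nearly silent in all 6 libraries. The nearest upstream gene on that strand with at least 10 CPM was Rnmt, an mRNA cap methyltransferase gene, 23.6 kb away. Rnmt had 30.6 ± 2.15 CPM without and 31.1 ± 1.77 CPM with H2O2. Of the 230 genes called higher, 65.7% had such an expressed gene within 5 kb upstream on their strand, against 45.1% of all tested genes with a position. Most of the 230, 213 genes, had a control mean under 2 CPM, as yellow-c had. For these 213 the share was 67.1%, against 44.4% of tested genes with a control mean under 2 CPM. The distance of yellow-c was reached or exceeded by 10% of the genes called higher and by 29.4% of the tested genes.

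On the opposite strand, yellow-c overlaps CIAPIN1, which encodes an iron-sulfur cluster assembly factor. Of the 1600 exonic bases of yellow-c, 1197 (74.8%) lie opposite CIAPIN1 exons, including all of its last 2 exons. CIAPIN1 had 111, 123 and 104 CPM in the controls and 106, 111 and 112 CPM after H2O2, and the groups overlapped (log2 fold change −0.04, SE 0.11, edgeR adjusted p = 0.956). After length correction its value was 0.01. The next gene downstream of yellow-c, Su(H), encodes the DNA-binding factor of Notch signalling. It had 31.7 ± 1.78 CPM without and 29.7 ± 3.28 CPM with H2O2 (−0.09, SE 0.12, edgeR adjusted p = 0.866). Of the genes around yellow-c, CIAPIN1, Su(H) and Rnmt were not called, while GABA-B-R1 did not pass the filter on low counts. Whether transcripts of neighbours added to the yellow-c counts was not tested.

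**Figure D2:**
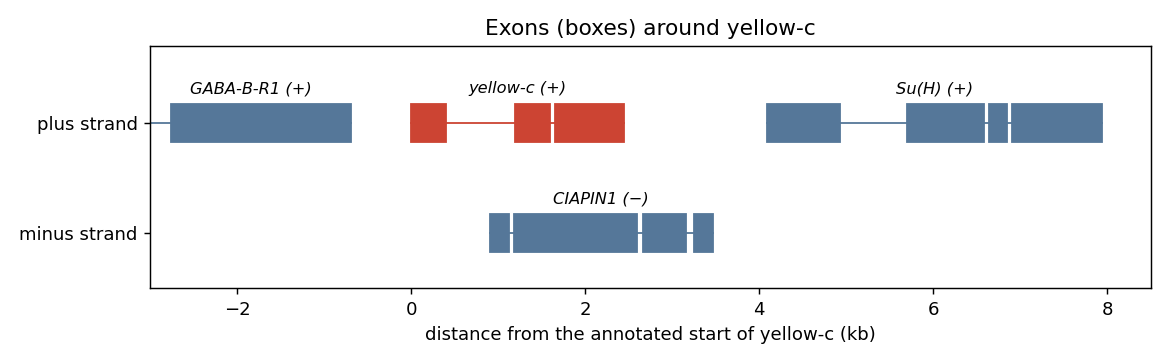
Annotated exons (boxes) on both strands around yellow-c, by distance in kb from its annotated start. The last 2 exons of yellow-c lie opposite CIAPIN1 exons, GABA-B-R1 ends 689 nt upstream and Su(H) begins downstream on the same strand.

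Whether RSEM shared reads between CIAPIN1 and yellow-c was read from the deposited values. The posterior SD of the count, which RSEM raises above 0 where reads fit more than 1 gene, was 0 for yellow-c and for CIAPIN1 in all 6 libraries. Over 260 pairs of genes with at least 200 nt of exonic overlap on opposite strands and a mean of at least 100 counts each, both genes had an SD of 0 in 229 pairs (88.1%). Over 196 such pairs on the same strand this held for 0 pairs. Read assignment in the deposited tables thus separated the strands.

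A stranded kit can yield a small share of reads on the wrong strand, and yellow-c was therefore set beside other genes in the same position. As a percentage of CIAPIN1 CPM, yellow-c stood at 0.895, 1.59 and 0.906 in control replicates 1, 2 and 3, and at 5.44, 13.1 and 6.42 in H2O2 replicates 1, 2 and 3. The comparison took 40 other tested genes with at least 50% of their exonic length opposite a gene of at least 50 CPM, and below 10% of its level. Both levels were means over the 6 libraries. Their median was 0.398%, 0.495% and 0.485% in the controls and 0.377%, 0.676% and 0.692% after H2O2. These 40 genes had a median log2 fold change of 0.18, against 0.02 over all genes tested, and 26 of the 40 were positive. Without the block 2 of them (5%) were called higher and 0 lower, against 2.57% and 0.57% of all genes tested. The fold change of 1 of the 40 was above that of yellow-c. The upper quartile of their percentages was 0.734%, 0.969% and 1.01% in the controls, where yellow-c was above it in replicates 1 and 2 and below it in replicate 3. The share of wrong-strand reads in the control counts of yellow-c was not tested. Their upper quartile after H2O2 was 0.86%, 1.25% and 1.15%. The H2O2 values of yellow-c are those it was chosen by, so their place among these genes is given as a description only.

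**Figure D3:**
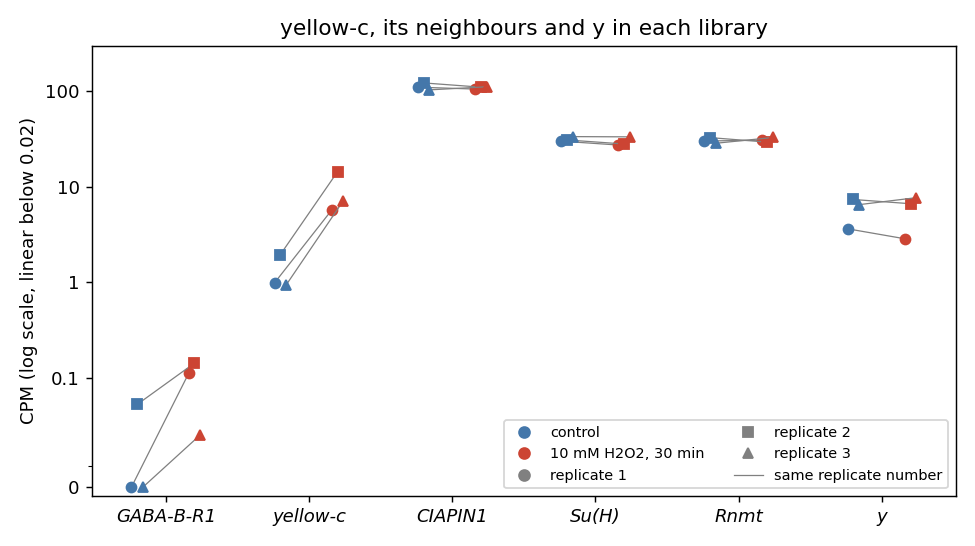
CPM of yellow-c, its neighbours and y in each library, on a log scale that is linear below 0.02, with grey lines joining libraries of the same replicate number. yellow-c rises in all 3 pairs, while the groups overlap in CIAPIN1, Su(H), Rnmt and y, and GABA-B-R1 stays at or below 0.143 CPM.

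None of the other 6 tested members was called, in either direction, without or with the replicate block, by DESeq2, or in the other fits run. Of all genes tested, 3.14% were called without and 21.7% with the block, so 0 of 6 is near the background and says nothing particular about the family. Their log2 fold changes lay between −0.24 and 0.23, with a median of 0.04 against 0.02 over all genes tested, and 3 of the 6 were positive. By edgeR, adjusted p was between 0.88 and 0.992 without the block, where 0 of the 6 had an unadjusted p under 0.05. With the block it was between 0.12 and 0.937, and 1 of the 6, yellow-h, had an unadjusted p under 0.05. A p above the threshold does not show that a level stayed the same, so the 95% intervals are given for each.

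Without the block, the 2 enzyme genes had the narrowest intervals of the 6. For yellow-f (FBgn0041710, chromosome 3R, 12991449 to 12993201, minus strand), the libraries held 197, 281 and 226 CPM in controls and 212, 253 and 226 CPM after H2O2. The groups overlapped, and the log2 fold change was −0.03 (SE 0.16), with an interval from −0.40 to 0.34, or −0.18 to 0.15 with the block. For yellow-f2 (FBgn0038105, 12993395 to 12995147 on the same chromosome), the libraries held 5.10, 8.06 and 7.83 CPM in controls and 7.03, 7.26 and 8.39 CPM after H2O2. Its log2 fold change was 0.11 (SE 0.21), with an interval from −0.39 to 0.62, or −0.16 to 0.42 with the block. Doubling or halving, at a log2 fold change of 1 or −1, lay outside the intervals of both.

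The pigment gene y (FBgn0004034, chromosome X, 356509 to 361245, plus strand) had 3.65, 7.40 and 6.53 CPM in the controls and 2.87, 6.68 and 7.73 CPM after H2O2. Replicate 1 was the lowest in both groups, and the groups overlapped. Its log2 fold change was −0.02 (SE 0.41, interval −0.99 to 0.95), and with the block the interval narrowed to −0.37 to 0.24. yellow-h (FBgn0039896, chromosome 4, 227922 to 230428, plus strand) had 4.43, 6.92 and 11.4 CPM in the controls and 5.83, 8.83 and 11.9 CPM after H2O2. Replicate 3 was the highest in both groups, and the groups overlapped. yellow-h was 1.31-fold, 1.28-fold and 1.05-fold the control of the same number. The log2 fold change was 0.23 (SE 0.39), or 0.26 (SE 0.11, edgeR adjusted p = 0.12) with the block.

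yellow-b (FBgn0032601, chromosome 2L, 16754336 to 16758283, plus strand) had the widest interval. Its control libraries held 2.55, 9.43 and 3.07 CPM, and its H2O2 libraries 3.29, 4.42 and 5.02 CPM. Control replicate 2 stood above all other libraries, and without it the log2 fold change turned from −0.24 (SE 0.50, interval −1.43 to 0.94) to 0.59. yellow-b lies 631 nt downstream of BuGZ, a mitotic spindle assembly gene, on the same strand. BuGZ fell in every library, from 138 ± 2.32 to 100 ± 1.96 CPM, with edgeR adjusted p = 0.0507 without the block and 0.000765 with it. Of the members, yellow-b lies closest downstream of a gene of at least 10 CPM on its own strand. The next are yellow-f2, 1.73 kb from CG44194, and yellow-f, 3.67 kb from the same gene, while cin lies 98.0 kb upstream of y and Crk 14.8 kb upstream of yellow-h.

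yellow-e (FBgn0041711, chromosome 3R, 13409543 to 13415286, minus strand) was the least abundant member tested. It had 29, 26 and 14 counts in the controls and 29, 32 and 24 after H2O2, a log2 fold change of 0.23 (SE 0.33, interval −0.55 to 1.02). The genes yellow-e3, yellow-e2 and yellow-e form a row on that strand. yellow-e3 had 0 counts in all 6 libraries, which at a floor of 3 counts allows up to 0.0131 CPM over the 228515311 counts of the 6 libraries. yellow-e2 had 0, 2 and 0 counts in the controls and 1, 0 and 2 after H2O2.

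**Figure D4:**
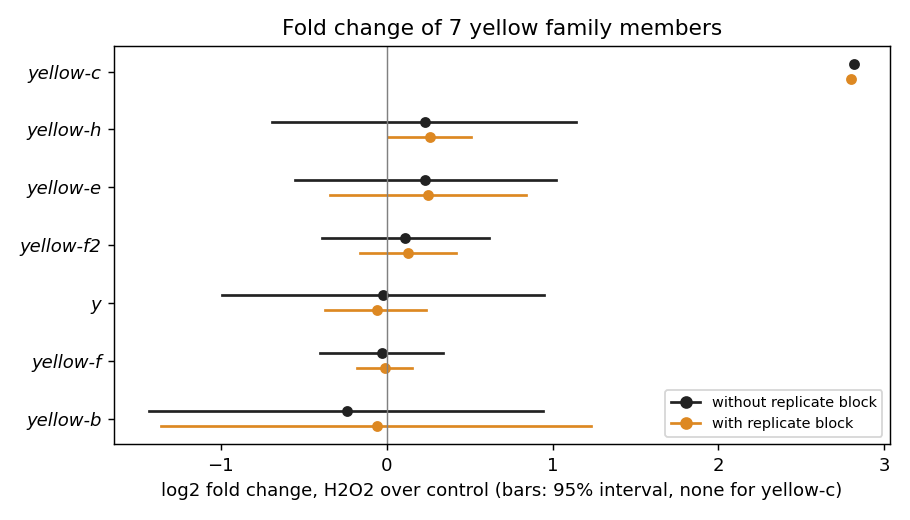
Log2 fold change of H2O2 over control for 7 members, without (black) and with (orange) the replicate block, with 95% intervals for all but yellow-c, which was chosen by this contrast. yellow-c stands at 2.82, and the intervals of the other members include 0 in both fits, except that of yellow-h with the block (0.01 to 0.51).

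The remaining members did not pass the filter. yellow-d and yellow-d2 lie 758 nt apart on chromosome 2R, inside the span of CG13551 on the other strand and with 0 nt of exonic overlap. CG13551 was at 59.9 ± 2.22 CPM without and 77.2 ± 10.7 CPM with H2O2 (edgeR adjusted p = 0.237, 0.00624 with the block and 0.143 with the block after length correction). yellow-d had 10, 8 and 8 counts in the controls and 15, 7 and 9 after H2O2, and yellow-d2 had 1 to 3 counts per library. The groups overlapped in each gene, and no change is read from counts this low. Among the genes outside the list, yellow-g, an eggshell gene of the ovary, had 5, 3 and 2 counts in the controls and 2, 1 and 4 after H2O2. yellow-g2 had 2 counts in H2O2 replicate 2 and 0 elsewhere, and yellow-k had 0 to 2 counts.

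Genes that act with the family in dopamine, melanin and melanisation chemistry were read from lists. Of 19 symbols for dopamine, tanning and pigment genes, 17 matched and 10 were tested, and 1 was called higher and 0 lower without the block, against 2.57% and 0.57% of all genes tested. The blocked fit called 3 higher and 1 lower, against 8.99% and 12.8% of all genes. After length correction in that fit the counts were 3 and 0, against 6.11% and 1.32%. The 10 had a median log2 fold change of 0.19, against 0.02 over all genes tested. The dopamine transporter gene DAT had 1.34, 3.09 and 2.27 CPM in the controls and 5.97, 7.54 and 7.38 CPM after H2O2, with no overlap (log2 fold change 1.64, SE 0.31, edgeR adjusted p = 0.0443). When any 1 of the 6 libraries was left out it was not called, with edgeR adjusted p from 0.0572 without control replicate 1 to 0.171 without H2O2 replicate 2, and a log2 fold change from 1.37 to 1.94. DAT lies 4.87 kb downstream of RpS15, a ribosomal protein gene with 2201 CPM, on the same strand. Among genes named below, the nearest gene of at least 10 CPM upstream on the same strand lay 1.04 kb from Ddc and 2.45 kb from Mco3. It lay 5.72 kb from svr, 28.9 kb from e and 34.7 kb from Spn28Dc.

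The multicopper oxidase gene Mco3 and the ebony gene e, whose enzyme joins dopamine to beta-alanine, were called higher only in fits other than the unblocked edgeR fit. Mco3 was at 0.653 ± 0.236 CPM without and 1.59 ± 0.142 CPM with H2O2 (log2 fold change 1.28, edgeR adjusted p = 0.0852, and 0.00404 with the block). e was at 0.234 ± 0.0633 CPM and 0.630 ± 0.350 CPM (1.43, edgeR adjusted p = 0.249, and 0.0154 with the block). At 0.161, 0.264 and 0.277 CPM in the controls, e passed the filter on low counts through its H2O2 libraries. Its p is therefore a description, and e is among the list genes counted above as called higher with the block. The dopa decarboxylase gene Ddc had 0.720 ± 0.623 CPM without and 2.22 ± 0.359 CPM with H2O2, and was called in neither fit (edgeR adjusted p = 0.242, and 0.0593 with the block). With 0.249 CPM in control replicate 3, Ddc also passed the filter through its H2O2 libraries, so its p is a description. The carboxypeptidase gene svr was lower with the block (299 ± 21.3 to 226 ± 11.9 CPM, edgeR adjusted p = 0.0019), and after length correction it was not called (−0.17, edgeR adjusted p = 0.141). The tyrosine hydroxylase gene ple, which makes the dopa of this pathway, had 2 to 13 counts per library and was not tested.

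Of the 4 most abundant dopamine and pigment genes by mean TPM, svr was the one called in the blocked fit, as above. Pcd and Dhpr, which recycle the pterin cofactor, had log2 fold changes of 0.20 and 0.09, and stw, the laccase gene of cuticle tanning, had −0.10 (edgeR adjusted p between 0.547 and 0.922 without the block). Of 10 genes of the melanisation cascade, 6 were tested and 0 were called without the block, against 3.14% of all genes. With it 1 was higher, against 8.99% of all genes, both near the background. This was the serpin gene Spn28Dc (15.6 ± 4.2 to 20.4 ± 4.6 CPM, log2 fold change 0.39 with the block, edgeR adjusted p = 0.00558). The remaining prophenoloxidase gene, PPO3, was at 38.1 ± 11.6 CPM without and 37.4 ± 5.53 CPM with H2O2. The protease genes MP1 and Sp7 and the serpin genes Spn27A and Spn77Ba had log2 fold changes of 0.06, 0.00, 0.04 and −0.04.

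**Figure D5:**
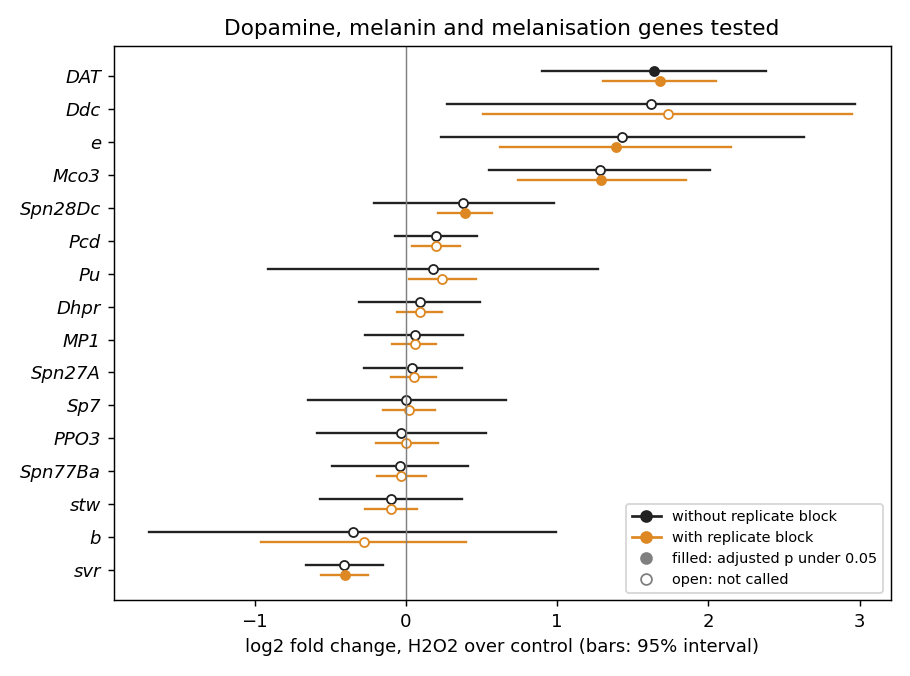
Log2 fold change of H2O2 over control for the 16 tested genes of the dopamine, melanin and melanisation lists, with 95% intervals, without (black) and with (orange) the replicate block. Filled points passed an adjusted p of 0.05, which DAT did in both fits and Mco3, e, Spn28Dc and svr did only with the block.

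Finally, the genes whose profile over the 6 libraries was most like that of yellow-c were listed by the root mean square difference of log2 CPM, each gene centred on its own mean. Among 6883 genes averaging 5 CPM or more, the closest were CG7509 (0.362), Galphaf (0.388), CG5707 (0.427), FASN2 (0.452) and CG8907 (0.489), where the median gene had 1.48. Galphaf encodes a G protein alpha subunit and FASN2 a fatty acid synthase. All 5 were higher after H2O2, with log2 fold changes from 2.05 to 2.52 without the block. Their control means were 1.95 to 2.77 CPM, so they, like yellow-c, reached a mean of 5 CPM through the H2O2 libraries. The likeness includes the step by which yellow-c was chosen, and is a description over 6 shared libraries. CG7509 lies 2.09 kb downstream of Dhc64C, Galphaf 3.73 kb from zetaCOP and CG8907 1.06 kb from Irc, the nearest genes of at least 10 CPM upstream on their strand. For FASN2 that distance was 11.6 kb and for CG5707 43.1 kb. Dhc64C itself was called lower without the block (log2 fold change −0.84, edgeR adjusted p = 0.0373). The upstream genes of the other listed genes were not called in that fit.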

How the data were processed

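A stranded mRNA kit was used, per the labels' protocols. The authors' deposited tables give expected counts and TPM per gene, from STAR 2.4.0j, RSEM 1.2.21 and dm6, per the submitters' processing notes. The authors' annotation release was not given in the sources used here. Here, expected counts were rounded, filtered with filterByExpr (8955 of 16451 genes, 99.975% of counts) and tested with edgeR 4.0.16 (TMM, robust quasi-likelihood) in R 4.3.3, with Benjamini-Hochberg adjustment at 0.05. Means are given ± SD over 3 libraries, SE is the log2 fold change divided by the root of F, and 95% intervals use the t distribution of the fit and are not adjusted for the number of genes. CPM are TMM-scaled.

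Labels give the same replicate numbers to both groups. Deviations of same-numbered libraries correlated at 0.717, 0.518 and 0.601, against −0.55 to 0.112 for different numbers. The numbers were therefore taken as pairs from these same data, and a blocked fit is given. Deviations were taken from each group's own mean, so positive same-number values lower the different-number values. The latter are not an independent contrast. No libraries were duplicates (chi-square per degree of freedom 45.5 to 211 over 15 pairs). Alternatives were DESeq2 1.42.0, limma 3.58.1 on log2(TPM + 1) and log2(TPM + 0.1), other count filters, removal of a length trend fitted in each library, and leaving out each library. The scripts were tested on simulated data.

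Members and lists were chosen with earlier results of these data known. Genes were named by rule: members, the other yellow genes, neighbours, list genes called in an edgeR fit, the 4 most abundant of each list, and the 5 genes most like yellow-c. PPO3, Ddc, ple, the markers and RpS15 were named after their values were seen. Of the symbols listed, AANAT1, ptps and nos were not matched. The floor of 3 counts covers counting error only.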

Additional observations from a re-analysis of the deposited data

How the results depend on the processing

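Without the replicate block edgeR called 281 genes, 230 higher and 51 lower. With the replicate block it called 1947 (805 higher, 1142 lower), 665 (547 and 118) after length correction in that fit, and DESeq2 called 706 (360 and 346). Genes called lower numbered 9 with the length trend removed and no block, and 80 by limma on log2(TPM + 0.1). The causes of these differences were not tested. Leaving out 1 library gave 0 to 154 calls (0 to 134 higher, 0 to 20 lower), a fit with fewer samples. The edgeR count was 0 when the omitted library was replicate 2 or 3 of the controls or replicate 2 of H2O2, with 1054, 1054 and 891 genes at an unadjusted p under 0.05 and all single-gene calls lost. Of the members other than yellow-c, the 6 that passed the filter of the main fit were followed, and 0 were called in each alternative run. In the fits that called 0 genes of any kind, that 0 was fixed in advance.

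Because yellow-c was chosen by this contrast, its sign in refits of the same libraries is a description and not a test. The yellow-c log2 fold change stayed positive under every alternative, at 2.31 to 3.24 when 1 library was left out. It was 1.90 by limma on log2(TPM + 1), where the pseudocount is near the control level. CIAPIN1 turned to 0.01 with the length trend removed, with and without the block, and ranged from −0.10 to 0.03 when 1 library was left out. The same ranges were −0.30 to 0.30 for y, −0.56 to 0.59 for yellow-b, −0.02 to 0.43 for yellow-e, −0.14 to 0.12 for yellow-f, −0.07 to 0.22 for yellow-f2 and −0.05 to 0.64 for yellow-h, so none of these has a fixed direction. Depth limits yellow-d, yellow-d2 and yellow-e3, with 0 to 15 counts per library.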
